A study of Mus musculus with 6 samples.

Results

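The iron handling genes described here are 10 genes chosen by symbol: lipocalin 2 (Lcn2) and its receptor gene Slc22a17, the plasma carriers Hp and Trf, the uptake genes Tfrc and Slc11a2, the ferritin genes Fth1 and Ftl1, and the export genes Slc40a1 and Cp. All 10 were found among the 24147 lines of the gene tables, and all 10 passed the filter on low counts, Hp through its 24 h counts alone. The tissue was the lens capsule with its attached epithelial cells from wild type C57BL/6 mice aged 2 months, after the lens fiber cells had been taken out in vivo through a corneal incision. The 24 h group (3 libraries) was collected a day after this mouse model of cataract surgery and the 0 h group (3 libraries) directly after it. Every library therefore came from an operated eye, and no source used here tells the number of eyes pooled per library, if any.

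Iron enters most cells bound to transferrin (Trf), which the transferrin receptor (Tfrc) carries into endosomes, where a reductase and the transporter DMT1 (Slc11a2) move the metal into the cytosol. Cytosolic iron is stored in ferritin, a shell of heavy (Fth1) and light (Ftl1) chains, and leaves through ferroportin (Slc40a1) with the help of ferroxidases such as ceruloplasmin (Cp). Lipocalin 2 binds bacterial siderophores, which starves bacteria of iron, and is a classic acute-phase product of stressed epithelia and of neutrophil granules. In the eye, free iron is known to promote oxidative damage, and the lens epithelium is known to make transferrin, ferritin and ceruloplasmin.

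Summed gene counts were 8069314 to 9249248 in the 24 h libraries and 8734906 to 10862573 in the 0 h libraries, so that 3 counts corresponded to 0.301 to 0.384 CPM (counts scaled to a common library size by the TMM method). The lens epithelial markers were present in all libraries, led by Cryaa at 46170 ± 4955 CPM in 24 h libraries, against 88070 ± 22743 CPM in 0 h libraries, and Cryab at 11496 ± 1945 CPM at 24 h, against 25173 ± 7056 CPM at 0 h (SD, n = 3 each). Of the 9 markers 6 were lower, Cryab among them, while Cryaa was not called (adjusted p = 0.0746). All 9 tested lens fiber markers, led by Crybb2 (10148 CPM at 24 h, 23527 CPM at 0 h) and Crygs (2037 CPM at 24 h, 6728 CPM at 0 h), were lower. Of 4 tested corneal markers 2 (Krt12 and Krt5) were higher and 1 (Aldh3a1) was lower. The most abundant over all 6 libraries were Aldh3a1 (429 CPM at 24 h, 874 CPM at 0 h) and Krt15 (24.8 CPM at 24 h, 8.37 CPM at 0 h). Krt12 had 9.46, 0.212 and 35.6 CPM at 24 h, against 0.301, 1.70 and 0.610 CPM at 0 h. Krt5 had 25.2, 0.637 and 34.3 CPM at 24 h, against 1.30, 0.200 and 1.71 CPM at 0 h. Neither keratin met the filter's count minimum in all libraries of either time. Photoreceptor RNA was also present, with Gnat1 at 252 to 1193 CPM at 24 h and 402 to 1379 CPM at 0 h, and 0 of 10 photoreceptor markers were called. In bulk tissue, a change in the number of cells of a type and a change in RNA per cell cannot be told apart.

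At 24 h, 5 of the 10 genes were higher and 2 were lower, by edgeR's quasi-likelihood test at a Benjamini-Hochberg adjusted p under 0.05 over all genes tested. Lcn2, Hp, Slc11a2, Fth1 and Ftl1 rose, Slc22a17 and Trf fell, and Tfrc, Slc40a1 and Cp were not called. Among all 13956 genes tested, 28.2% were called, 15.2% as higher and 13.0% as lower. The median log2 fold change of the 10 genes was 0.71, beside -0.03 over all genes tested. The libraries of the times did not overlap for 7 of the 10 genes, beside 44.7% of all genes tested. Hp passed the filter only through its 24 h counts, and the 10 genes were chosen with earlier results of these data known. The counts are therefore given as a description only. Against a 1.5-fold change in place of no change, 2 of the 10 genes (Lcn2 and Hp) were called higher, and Slc22a17 and Trf remained the 2 called lower.

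**Figure D1:**
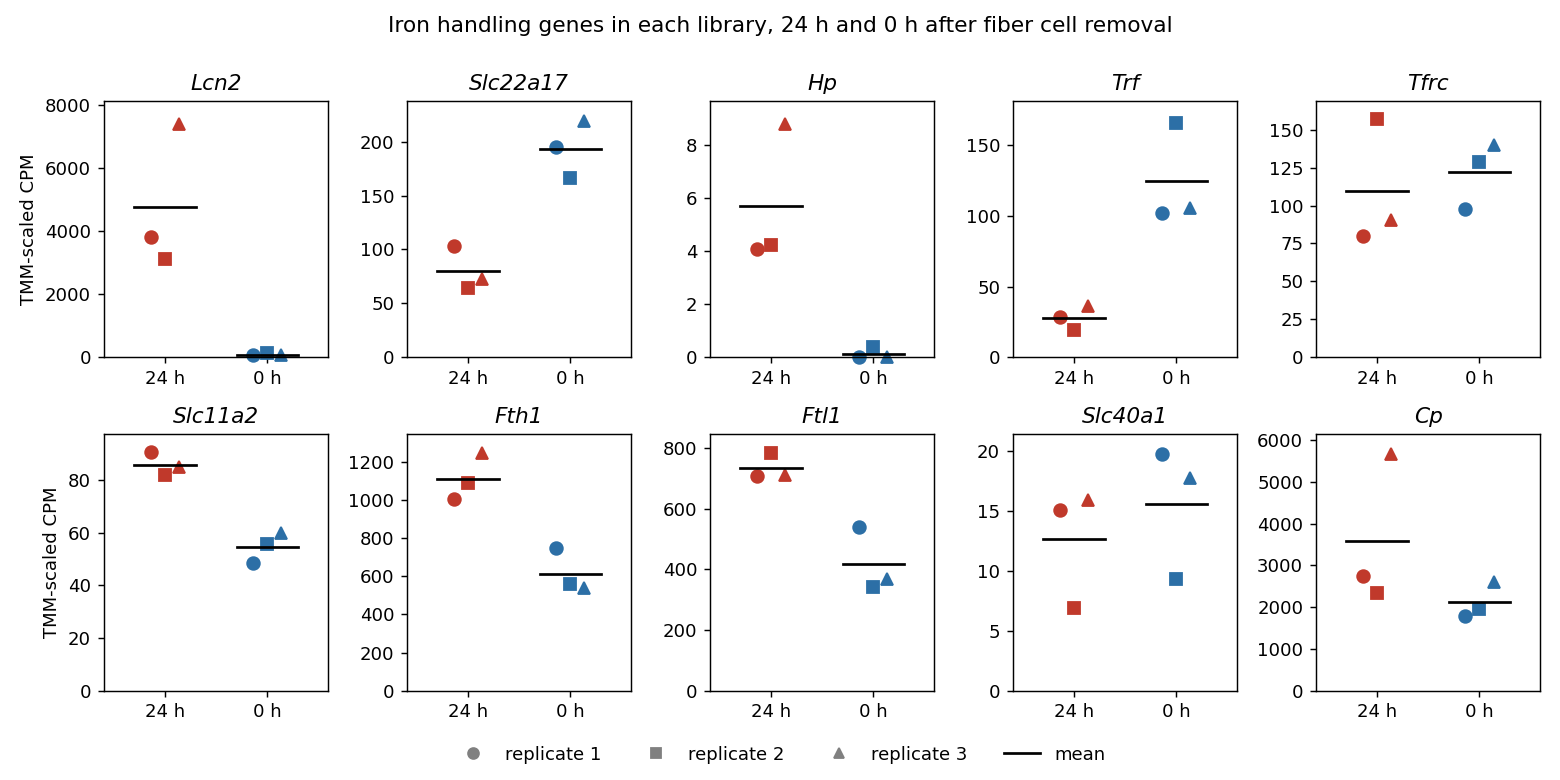
TMM-scaled CPM of the 10 iron handling genes in each library, with 24 h left of 0 h in each panel, 1 symbol per replicate number and a bar at the mean. Lcn2 lies at 3129 to 7392 CPM at 24 h, against 54.5 to 126 CPM at 0 h, Trf and Slc22a17 are lower in every 24 h library, and the groups overlap for Tfrc, Slc40a1 and Cp.

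Lcn2 rose and became the most abundant of the 10 genes per length. The gene lies on chromosome 2, 32384637 to 32387739 (mm10). It had 3825, 3129 and 7392 CPM in the 24 h libraries, against 72.6, 126 and 54.5 CPM in the 0 h libraries. The lowest 24 h library stood far above the highest 0 h library, and 24 h replicate 3 was the highest of all. The log2 fold change was 5.82 ± 0.49 (SE), a 56.6-fold rise with a 95% interval of 26.2 to 122 (adjusted p = 0.000136). By log2 fold change it ranked 79 of 13956 genes. Lcn2 held 0.371%, 0.342% and 0.756% of all counts in the 24 h libraries, against 0.00667%, 0.0134% and 0.00512% in the 0 h libraries. Counted per kilobase of gene length (RPKM), it was the gene of rank 8, 6 and 4 in the 24 h libraries, against rank 504, 209 and 703 in the 0 h libraries.

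The stretch of 250 bases before the annotated Lcn2 start is printed because Lcn2 was the most abundant of the 10 genes per length at 24 h. It spans chr2:32387740-32387989 on GRCm38.p6, minus strand, from RefSeq, written 5′ to 3′. Capitals mark the match to a C/EBP-like motif (TTNNGNAA, first) and the match to a broad kB-like motif (GGG and CC with any 5 bases between them, second), each searched on both strands, and the matches do not overlap.
Lcn2: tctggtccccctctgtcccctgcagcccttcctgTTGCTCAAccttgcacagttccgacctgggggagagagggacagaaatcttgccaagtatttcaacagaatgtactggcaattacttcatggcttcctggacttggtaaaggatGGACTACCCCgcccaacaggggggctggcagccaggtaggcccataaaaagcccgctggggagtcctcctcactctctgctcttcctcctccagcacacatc
The C/EBP-like match starts 216 bases and the kB-like match 102 bases before the start site, both on the strand opposite to the gene. Such matches are common: of 32851 promoter windows searched over the same 250 bases, 36.8% held the first motif and 45.8% the second. Neither a STAT-like (TTCNNNGAA) nor an AP-1 (TGANTCA) motif, held by 7.02% and 6.75% of windows, was found in these letters. Promoter windows were at hand for 6 of the 10 genes, and those of Hp, Slc11a2, Slc40a1 and Trf were not used here.

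Slc22a17, which encodes the cell-surface receptor for lipocalin 2 (chromosome 14, 54906727 to 54913132), went the other way. It had 103, 63.9 and 72.85 CPM in the 24 h libraries, against 195, 167 and 219 CPM in the 0 h libraries. All 3 libraries at 24 h lay below all 3 at 0 h. The gene was 2.42-fold lower at 24 h, a log2 fold change of -1.28 ± 0.20 (SE; adjusted p = 0.00234). Per length, Lcn2 and its receptor were at overlapping levels at 0 h, with 63.9 to 148 RPKM for Lcn2 and 72.6 to 95.5 RPKM for Slc22a17. At 24 h Lcn2 averaged 5606 ± 2681 RPKM and Slc22a17 34.8 ± 8.88 RPKM (SD, n = 3).

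Hp encodes haptoglobin, the plasma protein that captures free haemoglobin and an acute-phase product of the liver (chromosome 8, 109575128 to 109579172). Its counts were 32, 40 and 83 in the 24 h libraries, against 0, 4 and 0 in the 0 h libraries. It was thus a rare transcript at 24 h, at 5.71 ± 2.66 CPM (SD, n = 3), and its 0 h counts came from 0 h replicate 2 alone. The ratio of summed counts, scaled by library, was 40.9 with an exact 95% counting interval of 15.6 to 152, which covers counting error only. The edgeR test gave a log2 fold change of 5.22 ± 0.90 (SE; adjusted p = 0.00356), a 37.2-fold rise with a 95% interval of 8.94 to 155. Without 0 h replicate 2 all 0 h counts were 0. With 3 counts assumed over the remaining 0 h libraries, the ratio was 35.2, a point value given without an interval.

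Neutrophil markers moved with Lcn2 and Hp. Of 13 markers found, 7 passed the filter and were called higher, but 5 of these (S100a8, S100a9, Itgam, Mmp9 and Retnlg) passed only through the 24 h group, so the count is given as a description only. The most abundant over all 6 libraries were Csf3r, the receptor for granulocyte colony-stimulating factor, at 37.6 ± 10.7 CPM in 24 h libraries, against 1.98 ± 0.499 CPM in 0 h libraries, and Itgam, an integrin chain of myeloid cells, at 37.3 ± 20.6 CPM at 24 h, against 3.70 ± 3.17 CPM at 0 h (SD, n = 3 each). The summed level of the 13 was 115, 153 and 218 CPM at 24 h, against 8.42, 15.03 and 16.96 CPM at 0 h. Both Lcn2 and the summed markers were highest in 24 h replicate 3, but Lcn2 was lower in 24 h replicate 2 than in 24 h replicate 1 while the summed markers were higher. Lcn2 exceeded the whole list 33.2-fold, 20.4-fold and 33.9-fold in the 24 h libraries, against 8.63-fold, 8.39-fold and 3.22-fold in the 0 h libraries, in CPM, which is not adjusted for gene length. The granule genes Camp, Ngp, Mpo and Ltf had at most 7 counts in any library and Elane had 0 in all 6. On the same list, Mmp8 had 7, 12 and 21 counts at 24 h and 0 in every 0 h library, and was not tested. Mmp9, which was called higher, had 136, 213 and 309 counts at 24 h, against 22, 20 and 3 counts at 0 h. The part of neutrophils in the rise of Lcn2 and Hp was not tested.

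**Figure D2:**
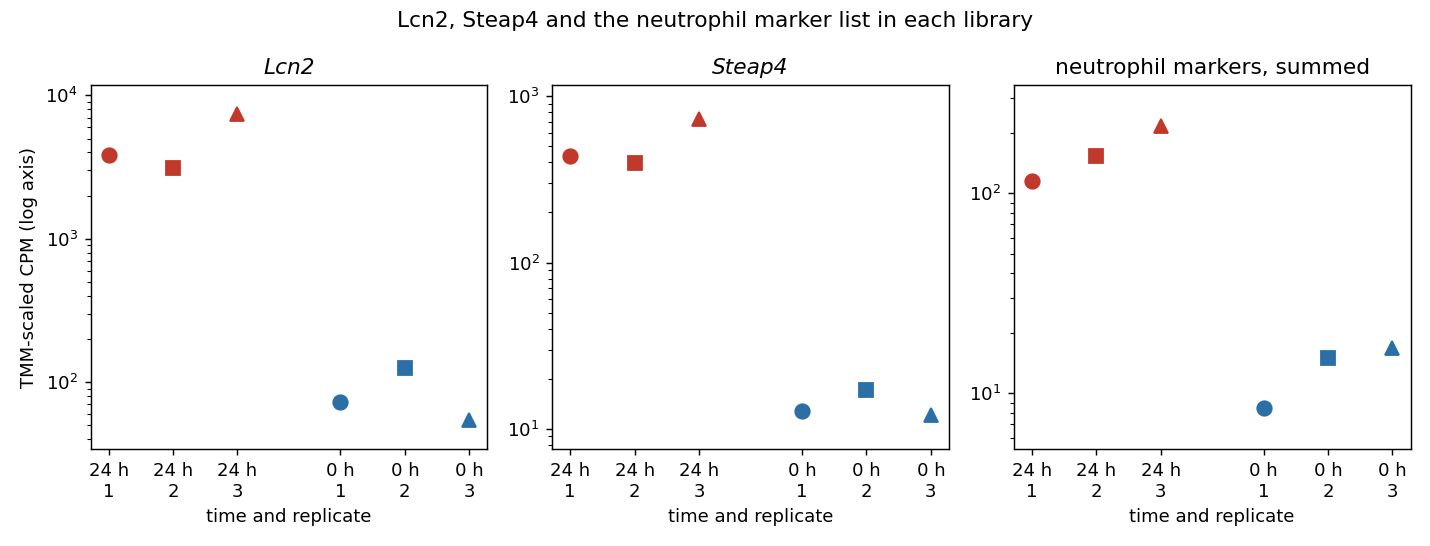
TMM-scaled CPM on log axes of Lcn2, Steap4 and the 13 neutrophil markers summed, in each of the 3 libraries at 24 h (left) and the 3 at 0 h (right), 1 point per library. All 3 panels show 24 h above 0 h, with Lcn2 at 3129 to 7392 CPM and the summed markers at 115 to 218 CPM at 24 h.

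Transferrin fell. Trf, which carries ferric iron in plasma and eye fluids (chromosome 9, 103208876 to 103230286), had 28.4, 19.3 and 36.4 CPM in the 24 h libraries, against 102, 166 and 106 CPM in the 0 h libraries. The groups did not overlap, and 0 h replicate 2 was the highest. Trf was 4.44-fold lower at 24 h, a log2 fold change of -2.15 ± 0.27 (SE; adjusted p = 0.000809), and ranked 184 from the lowest log2 fold change. Markers of the pigment epithelium, a tissue known to express transferrin, moved in both directions. Of 10 such markers 4 (Rpe65, Lrat, Ttr and Rgr) were lower and 2 (Pmel and Mlana) were higher, and the summed level was 84.3 to 724 CPM at 24 h and 225 to 384 CPM at 0 h. Of these, Rpe65 and Lrat passed the filter only through the 0 h group and Mlana only through the 24 h group. The most abundant over all 6 libraries were Tyrp1, at 174 ± 153 and 71.9 ± 13.1 CPM, and Pmel, at 193 ± 151 and 19.6 ± 22.6 CPM (24 h and 0 h, SD, n = 3). Of the lower ones, Rgr averaged 1.96 CPM at 24 h, against 58.7 CPM at 0 h, and Ttr 4.45 against 46.4 CPM. Rpe65 averaged 1.02 against 16.8 CPM and Lrat 0.191 against 11.2 CPM. Mlana, which was higher, averaged 14.1 against 2.70 CPM. The part of the pigment epithelium in the fall of Trf was not tested. With the summed photoreceptor level as a covariate, added after seeing the data, Trf had a log2 fold change of -2.23 (adjusted p = 0.000804). That covariate does not measure the pigment epithelium. In the same fit the log2 fold change of Cp was 0.40, against 0.76 without the covariate. That of Slc40a1 was -0.57, against -0.31, and neither gene was called.

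The genes of iron uptake differed from each other. Slc11a2, the transporter DMT1 (chromosome 15, 100387900 to 100423055), had 90.8, 82.1 and 84.9 CPM in the 24 h libraries, against 48.4, 55.6 and 59.8 CPM in the 0 h libraries. The 24 h values were close together and all above the 0 h values. The rise was 1.57-fold, with a 95% interval of 1.28 to 1.94 (adjusted p = 0.00688), which did not pass when tested against a 1.5-fold change (adjusted p = 0.466). Tfrc, the transferrin receptor (chromosome 16, 32608896 to 32632794), had 79.9, 157 and 90.6 CPM in the 24 h libraries, against 97.4, 128 and 140 CPM in the 0 h libraries. The groups overlapped, with 24 h replicate 2 the highest and 24 h replicate 1 the lowest of all. The log2 fold change was -0.16 ± 0.26 (SE; adjusted p = 0.698), with a 95% interval of -0.75 to 0.44. Its sign was not stable: leaving out 24 h replicate 1 gave 0.06, and leaving out 24 h replicate 2 gave -0.51 (adjusted p = 0.0916).

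Both ferritin chains rose, by about the same factor. Fth1 (chromosome 19, 9980600 to 9985111) had 1004, 1088 and 1248 CPM in the 24 h libraries, against 749, 558 and 536 CPM in the 0 h libraries. Ftl1 (chromosome 7, 45457944 to 45459886) had 707, 784 and 713 CPM in the 24 h libraries, against 539, 341 and 369 CPM in the 0 h libraries. For both genes every 24 h library was above every 0 h library, and 0 h replicate 1 was the highest of its group. The rise was 1.81-fold for Fth1 (95% interval 1.33 to 2.46, adjusted p = 0.0117) and 1.76-fold for Ftl1 (1.28 to 2.43, adjusted p = 0.0177). Leaving out 24 h replicate 2 ended the call of Ftl1 (adjusted p = 0.0508), as did leaving out 0 h replicate 2 (0.0594) or the third 0 h library (0.0621). Tested against a 1.5-fold change, neither passed, at adjusted p = 0.171 for Fth1 and 0.237 for Ftl1.

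The balance of the chains showed no detectable difference. The log2 ratio of Fth1 to Ftl1 per length was -0.13, -0.17 and 0.17 in the 24 h libraries, against -0.17, 0.07 and -0.10 in the 0 h libraries. The difference in means was 0.02, and an exact two-sided permutation test gave p = 0.9, where 0.1 is the smallest p that 3 against 3 libraries allow. The summed level of both chains per length was 1494 ± 88.6 RPKM at 24 h and 836 ± 187 RPKM at 0 h (SD, n = 3). Ferritin counts carry an added uncertainty: the GENCODE annotation of the same build holds 14 other genes named as ferritin chains or their pseudogenes, 7 of them pseudogenes, and 0 of the 14 stand under those names in the deposited table. Reads shared with such copies could have been counted differently.

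Ferritin, ferroportin and transferrin receptor messages are textbook targets of the iron regulatory proteins, which bind a hairpin called the iron-responsive element. In a 5′ untranslated region it blocks translation when iron is low, and in the 3′ untranslated region of Tfrc it protects the message. A search on the transcript strand for a loop of 6 bases (CAGTGN) between arms of 5 bases that can pair, G with T allowed, behind an unpaired C found it in the 5′ untranslated region of Fth1, Ftl1 and Slc40a1 and in the 3′ untranslated region of Tfrc. Of genes with such a region annotated in GENCODE, 0.148% of 20916 held a match in the 5′ region and 0.594% of 21707 in the 3′ region. The sites of Fth1, Ftl1 and Tfrc are shown because they are a feature that the genes share beyond their function. They are at chr19:9982732-9982760 (plus strand) for Fth1, chr7:45459779-45459807 (minus strand) for Ftl1 and chr16:32631219-32631247, chr16:32631598-32631626, chr16:32631663-32631691 and chr16:32631710-32631738 (plus strand) for Tfrc, all on GRCm38. Capitals mark the loop.
Fth1: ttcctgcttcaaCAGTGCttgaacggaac
Ftl1: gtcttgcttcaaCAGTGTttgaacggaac
Tfrc, first site: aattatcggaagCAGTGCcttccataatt
Tfrc, second site: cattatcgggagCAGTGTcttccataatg
Tfrc, next site: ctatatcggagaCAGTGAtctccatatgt
Tfrc, last site: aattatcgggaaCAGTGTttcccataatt
The ferritin sites share the 5-base arms on both sides of the loop. The genes with a 5′ match were higher (Fth1 and Ftl1) or not called (Slc40a1), and the gene with 3′ matches was not called. Slc11a2, which was called higher, was among the genes without a match. Elements that depart from the searched loop or paired arms would be missed, so a gene without a match may still hold an element. These calls therefore do not compare genes with and without the element. A match is a description of the letters, and RNA levels do not measure the translation that a 5′ element controls.

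The export genes were not called. Slc40a1, ferroportin (chromosome 1, 45908070 to 45925594), had 15.1, 6.90 and 15.9 CPM in the 24 h libraries, against 19.7, 9.32 and 17.7 CPM in the 0 h libraries. The groups overlapped and replicate 2 was the lowest at both times. The log2 fold change was -0.31 with a 95% interval of -1.16 to 0.55 (adjusted p = 0.593). Cp, ceruloplasmin (chromosome 3, 19957054 to 20009750), had 2743, 2341 and 5658 CPM in the 24 h libraries, against 1787, 1965 and 2610 CPM in the 0 h libraries. A single library, 24 h replicate 3, stood above the rest, and the others overlapped between times. The log2 fold change was 0.76 ± 0.35 (SE; 95% interval -0.04 to 1.55, adjusted p = 0.142), and 0.26 without 24 h replicate 3 (adjusted p = 0.490). The end of Cp overlaps Hps3 in the table, which had 1784 counts over all 6 libraries.

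**Figure D3:**
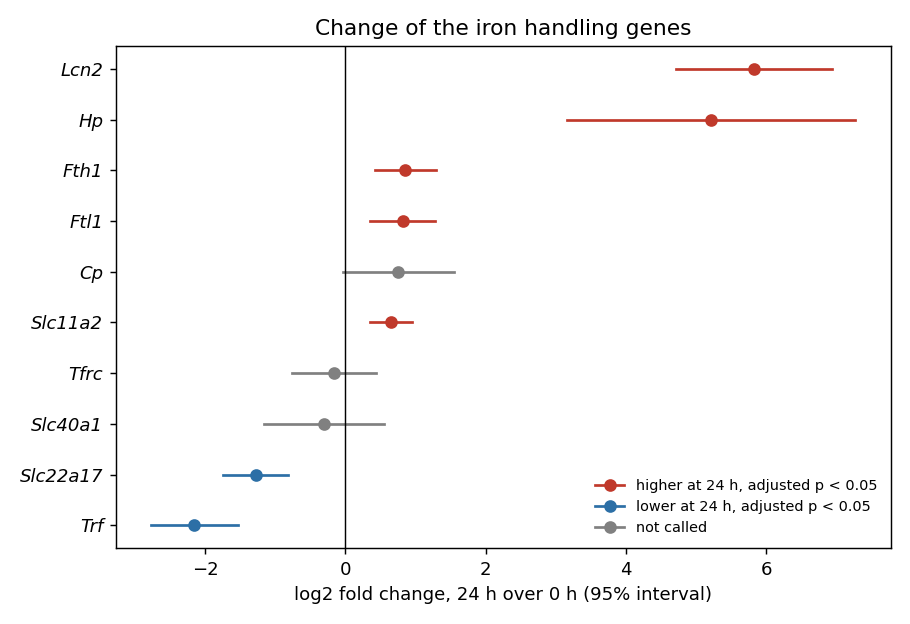
Log2 fold change (24 h over 0 h) of each iron handling gene with its 95% interval from the edgeR quasi-likelihood fit; genes run by fitted log2 fold change from top to bottom and colours give the call. Lcn2 and Hp lie far to the right, the ferritin genes and Slc11a2 below 1, and the intervals of Cp, Tfrc and Slc40a1 cross 0.

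Ordered by level per length, the 24 h libraries ran Lcn2 (5606 RPKM), Ftl1 (758), Fth1 (737), Cp (572), Slc22a17 (34.8), Tfrc (22.2), Slc11a2 (15.2), Trf (12.02), Hp (4.24) and Slc40a1 (3.73). At 24 h the ranges over libraries overlapped between the neighbours Ftl1 and Fth1, Fth1 and Cp, Slc22a17 and Tfrc, Slc11a2 and Trf, and Hp and Slc40a1. The 0 h libraries ran Ftl1 (429 RPKM), Fth1 (407), Cp (338), Lcn2 (99.0), Slc22a17 (84.4), Trf (53.4), Tfrc (24.8), Slc11a2 (9.69), Slc40a1 (4.61) and Hp (0.0993). At 0 h the ranges overlapped between Ftl1 and Fth1, Fth1 and Cp, and Lcn2 and Slc22a17. The 10 genes together held 8600, 7676 and 15320 CPM in the 24 h libraries, against 3610, 3516 and 4112 CPM in the 0 h libraries. The exact two-sided permutation test on these sums gave p = 0.1, the smallest possible. As the 10 genes were chosen with earlier results of these data known, this p is given as a description only. The difference in means was 6786 CPM, and 4392 CPM without 24 h replicate 3. With Lcn2 and Cp left out, the sums averaged 2170 ± 123 CPM at 24 h, against 1541 ± 182 CPM at 0 h (SD, n = 3). That difference was 628 CPM, so Lcn2 and Cp held most of the difference in the sum.

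By root mean square difference of centred log2 CPM over the 6 libraries, the genes most like Lcn2 were Steap4 (0.40), Tnfaip2 (0.45) and Itga7 (0.47), out of 9698 genes with a mean of at least 10 CPM. Steap4 rose to 522 ± 181 CPM at 24 h, against 13.9 ± 2.69 CPM at 0 h, Tnfaip2 to 51.5 ± 11.4 CPM at 24 h, against 0.563 ± 0.120 CPM at 0 h, and Itga7 to 379 ± 68.2 CPM at 24 h, against 8.95 ± 1.76 CPM at 0 h (SD, n = 3). Tnfaip2 passed the filter only through the 24 h group. Nearest to Hp were Serpina3n (0.38), at 2164 ± 1103 CPM at 24 h, against 132 ± 52.7 CPM at 0 h, Adam8 (0.42) and Cd97 (0.44). Their fitted rises were 16.4-fold, 17.2-fold and 11.6-fold, beside 37.2-fold for Hp. The log2 CPM used here had a prior count of 2 added, which shrinks the differences of a gene with counts as low as those of Hp. Adam8, too, passed the filter only through the 24 h group. Nearest to Tfrc were Mboat1 (0.09), Zfp870 (0.11) and Slc2a1 (0.11), at 943 ± 356 CPM at 24 h and 1176 ± 216 CPM at 0 h for Slc2a1, and none of these 3 was called.

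Other genes of iron and heme handling were read from a list of 61, of which 59 were found and 51 passed the filter. At 24 h, 10 of the 51 were higher and 8 were lower, so that 35.3% were called, beside 28.2% of all genes. Of the 51, 3 passed the filter only through the 24 h group, among them Alas2, which was called higher. Another 3 passed only through the 0 h group, among them Cd163, which was called lower. Their median log2 fold change was 0.02, beside -0.03 over all genes. The higher count was 6 without 0 h replicate 2. The lower count was 4 when 24 h replicate 2 was left out, likewise for 0 h replicate 3, and 5 when either of the other 0 h libraries was. Against a 1.5-fold change 6 were higher and 4 lower.

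Among 10 tested genes of uptake and reduction, 5 were higher and 1 was lower. Steap4, a metalloreductase that reduces iron and copper, had 436, 399 and 730 CPM in the 24 h libraries, against 12.7, 17.03 and 12.1 CPM in the 0 h libraries. It rose 37.3-fold (adjusted p = 2.51e-05), and its 24 h libraries stood in the same order as those of Lcn2. Cybrd1, a membrane ferric reductase, had 38.4, 28.1 and 44.9 CPM in the 24 h libraries, against 190, 188 and 283 CPM in the 0 h libraries. It was 5.93-fold lower (adjusted p = 0.000192). The other higher genes were the zinc and iron transporter Slc39a14 at 2.99-fold, and Steap3, Steap1 and Steap2 at 2.66-fold, 1.83-fold and 1.55-fold. Ltf, which encodes lactoferrin, an iron-binding protein of neutrophil granules and secretions, had 7, 6 and 3 counts at 24 h and 4, 0 and 1 counts at 0 h and was not tested.

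Of 7 tested genes of the iron regulatory proteins and ferritin turnover, 1 was higher, 1 was lower and 5 were not called. Aco1, which encodes the iron regulatory protein IRP1, averaged 72.9 ± 8.89 CPM in 24 h libraries, against 48.6 ± 4.85 CPM in 0 h libraries (SD, n = 3 each), a log2 fold change of 0.58 (adjusted p = 0.0172). The call was lost on leaving out 24 h replicate 3 (adjusted p = 0.0533), 0 h replicate 2 (0.0552) or the third 0 h library (0.0585). Ireb2, which encodes IRP2, averaged 143 ± 20.6 CPM in 24 h libraries, against 104 ± 14.5 CPM in 0 h libraries, and missed the threshold (adjusted p = 0.0639), but passed with library totals only (adjusted p = 0.0308) and in DESeq2's Wald test (adjusted p = 0.0443). Fbxl5, the iron-sensing adaptor that marks iron regulatory proteins for breakdown, averaged 99.98 ± 9.34 CPM in 24 h libraries, against 124 ± 13.7 CPM in 0 h libraries (adjusted p = 0.143). Ncoa4, the receptor for the autophagy of ferritin, averaged 123 ± 17.8 CPM at 24 h, against 120.4 ± 10.2 CPM at 0 h (adjusted p = 0.924). Bdh2, an enzyme linked to a mammalian siderophore, was 2.27-fold lower (adjusted p = 0.0391), and was not called in 5 of the 6 fits without 1 library, the exception being that without 24 h replicate 1.

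Heph, the membrane ferroxidase hephaestin, had 44.1, 25.5 and 48.95 CPM in the 24 h libraries, against 118, 90.4 and 146 CPM in the 0 h libraries. It was 2.98-fold lower at 24 h (adjusted p = 0.00304). Of the hepcidin axis, which controls ferroportin from the liver, 3 of 7 genes passed the filter. Hamp, hepcidin itself, had 1 count in all 6 libraries. Neo1, a receptor of that axis and of axon guidance, was 1.57-fold lower (adjusted p = 0.0374) and Hfe, a partner of the transferrin receptor, 2.18-fold lower (adjusted p = 0.0488). Neo1 lost its call in 4 of the 6 fits without 1 library, those leaving out 24 h replicates 1 and 2 and 0 h replicates 1 and 3 (adjusted p up to 0.148). Hfe was not called with library totals only, with DESeq2 size factors, with limma-voom, or on leaving out 24 h replicates 1 or 2 or 0 h replicates 2 or 3 (adjusted p between 0.0520 and 0.178).

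Of 10 tested genes of heme scavenging, transport and breakdown, 1 was higher and 1 was lower. Hmox1, the inducible heme oxygenase that frees iron from heme, had 359, 464 and 121 CPM in the 24 h libraries, against 49.8, 9.82 and 13.4 CPM in the 0 h libraries. Unlike Lcn2, it was lowest of the 24 h group in replicate 3. The log2 fold change was 3.69 ± 0.69 (SE; adjusted p = 0.00516), and 4.79 without 0 h replicate 1, which was the highest 0 h library. Cd163, the macrophage receptor for haptoglobin bound to haemoglobin, had 0.767, 2.12 and 1.80 CPM in the 24 h libraries, against 4.71, 8.32 and 8.42 CPM in the 0 h libraries (4.49-fold lower, adjusted p = 0.00932), and passed the filter only through the 0 h group. Of 12 macrophage markers, which include Cd163, 2 were higher and 4 lower, and the summed level was 113 to 198 CPM at 24 h and 81.9 to 187 CPM at 0 h. The higher ones were Cd14, at 36.3 ± 6.81 CPM at 24 h, against 3.67 ± 1.47 CPM at 0 h, and Cd68, at 34.4 ± 5.31 CPM at 24 h, against 5.91 ± 2.13 CPM at 0 h (SD, n = 3 each). The lower ones besides Cd163 were Mrc1, Cx3cr1 and Csf1r, the last at 12.5 ± 5.50 CPM at 24 h, against 31.9 ± 13.6 CPM at 0 h. Lyz2, which was not called, averaged 29.5 ± 17.6 CPM in 24 h libraries, against 16.3 ± 4.13 CPM in 0 h libraries. Their part in the fall of Cd163 was not tested. Hpx, which encodes the heme scavenger hemopexin, stayed near the floor, at 0.728 ± 0.653 CPM in 24 h libraries, against 1.22 ± 0.732 CPM in 0 h libraries (adjusted p = 0.559).

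In heme synthesis, Alad, an early enzyme of the pathway, had 141, 79.9 and 185 CPM in the 24 h libraries, against 531, 436 and 568 CPM in the 0 h libraries (3.78-fold lower, adjusted p = 0.00182). Alas2, the form of the first enzyme found in red cell precursors, had 66, 75 and 26 counts at 24 h and 13, 6 and 7 counts at 0 h, a 6.83-fold rise (adjusted p = 0.00735) in a gene that passed the filter only through the 24 h group. Of 9 red cell markers found, which include Alas2, 7 were at 0 in all 24 h libraries and 6 in all 0 h libraries, and their part in the rise of Alas2 was not tested. Hbb-bs had 3, 0 and 3 counts at 24 h and 0 at 0 h, and haemoglobin genes have near-identical copies whose reads may not have been counted. Of 11 mitochondrial iron and iron-sulphur cluster genes 9 were not called. Slc25a37, the mitochondrial iron importer mitoferrin 1, rose 3.03-fold to 62.6 ± 23.3 CPM, against 20.7 ± 5.15 CPM at 0 h (SD, n = 3 each; adjusted p = 0.00473). Isca1, an assembly factor for iron-sulphur clusters, was 1.37-fold lower (adjusted p = 0.0344) and was not called in any of the 6 fits without 1 library (adjusted p from 0.0594 to 0.115).

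**Figure D4:**
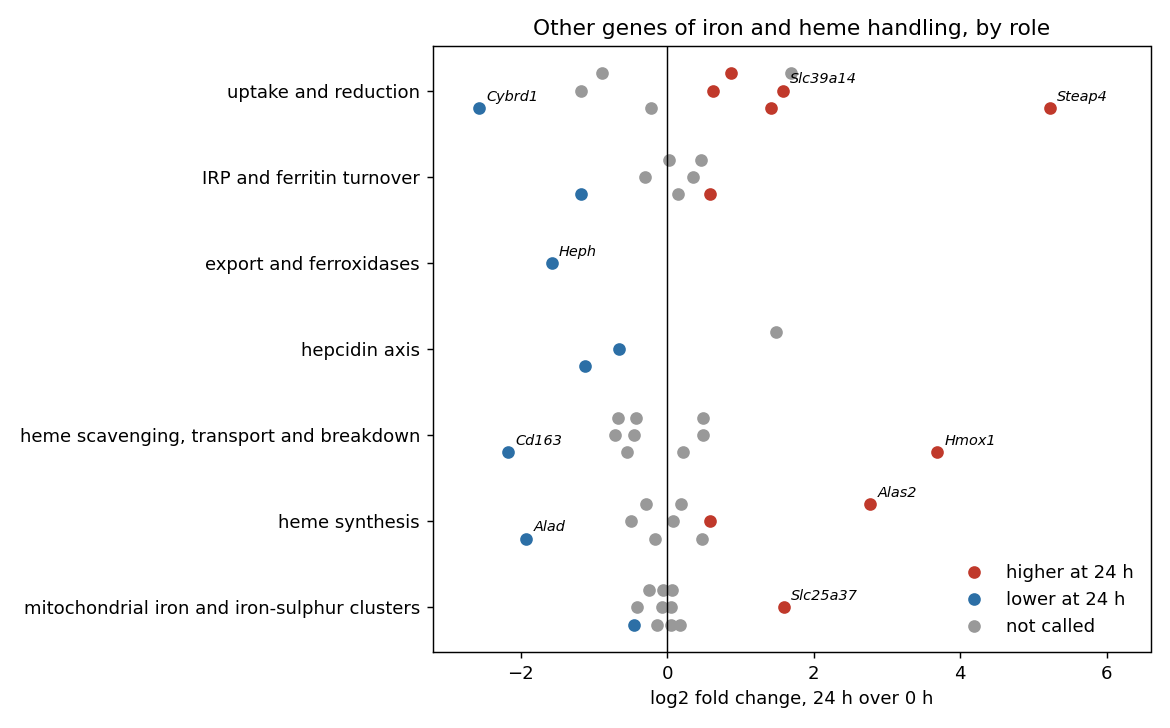
Log2 fold change (24 h over 0 h) of the 51 tested iron and heme genes outside the 10, 1 point per gene, by role from top to bottom, with points spread vertically only for legibility. Steap4 and Hmox1 lie farthest to the right and Cybrd1 and Cd163 farthest to the left, while most mitochondrial genes lie near 0.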

How the data were processed

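RNA was measured by sequencing in 6 libraries. The submitters' processing notes list mm10, edgeR 3.16.5, HTSeq 0.6.1p1, SAMtools 1.4, bedtools 2.17, TopHat2 2.1.0, Trim Galore 0.4.4 and FastQC. Neither annotation nor strand setting is named in them. Per the file headers, the authors gave each gene a raw count, a position and a length. RPKM as deposited equals count over length and summed counts, and was used only for that check. RPKM values in the text were computed from TMM-scaled counts.

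The 24 h and 0 h counts were compared with edgeR 4.0.16 (R 4.3.3) by the quasi-likelihood test after filterByExpr, with TMM scaling, no covariate and Benjamini-Hochberg adjustment over 13956 genes. Every adjusted p comes from this fit unless another tool, scaling, covariate, block, fold threshold or left-out library is named with it. Standard errors are the log2 fold change over the square root of F and are approximate. P-values measure the spread between libraries, called biological triplicates by the series. No replicate pair agreed within sampling noise. Alternatives used limma 3.58.1, DESeq2 1.42.0, other scalings, filters and left-out libraries.

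The members and lists were chosen with earlier results of these data known. All 10 members are named, with the 2 lowest p in each role of the longer list, 10 genes always named (Hmox1, Hamp, Ireb2, Aco1, Fbxl5, Ncoa4, Ltf, Heph, Hpx and Steap4), the 3 genes nearest to Lcn2, Hp and Tfrc, and the 2 highest markers of each cell type, of which 1 is not reported here. Slc39a14, Steap1, Steap2, Steap3 and other markers were named after their values were seen. Flvcr1 and Flvcr2 were not analysed here.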

Additional observations from a re-analysis of the deposited data

How the results depend on the processing

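Over 16 alternatives each, Lcn2, Slc22a17, Hp and Trf kept their direction and call. The count of the 10 genes called higher was 5, and 2 against a 1.5-fold change, 4 to 5 without 1 library. The count called lower was 2 under every alternative run. On the longer iron list, 10 genes were higher and 8 lower, against 6 and 4 for a 1.5-fold change, and 6 to 9 and 4 to 9 without 1 library. Over all genes, 2125 were higher and 1817 lower, against 1060 and 629 for a 1.5-fold change, and 1551 to 1897 and 1041 to 1648 without 1 library. Signs that turned were those of Tfrc (-0.51 to 0.061 without 1 library, the highest without 24 h replicate 1) and Ncoa4 (-0.047 to 0.14 without 1 library, below 0 without 24 h replicate 1 or 0 h replicate 2, and -0.030 with the photoreceptor covariate, which was added after seeing the data), and neither gene was called in any of these fits. The cause was not tested. Scaling by library totals moved the median log2 fold change of all genes by 0.08.

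Same-numbered libraries were not shown to be pairs: their deviations from the group means correlated at 0.09, 0.22 and 0.40 across genes, where genes are not independent replicates, against -0.35 to 0.17 for the 6 pairs with different numbers. The first 24 h library correlated better with 0 h replicate 2 (0.17) than with its own number. With the replicate number as a block, 6 of the 10 genes were higher, Cp being added (log2 fold change 0.66, adjusted p = 0.0449), 2 were lower, Ireb2 was called (adjusted p = 0.0245), and the longer list had 12 higher and 10 lower. Low counts limit Hp, Ltf and Hamp.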
